A study of Xiphophorus maculatus with 32 samples.

Results

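In skin of the platyfish *Xiphophorus maculatus*, 6 of the transcripts counted belong to the Gq, phospholipase C, calcium and protein kinase C route, and their levels after light exposure are described here. The 6 were taken by identifier from 20218 transcripts in the deposited counts. The rule itself uses no measured level, but the genes were chosen with earlier results of these data known. The panel that names most of them was also made of genes found light responsive in earlier work of the same group. Of these, 5 carry the name that the study's probe panel gives to an Ensembl transcript: GNA15 (ENSXMAT00000013490), PLCH2 (ENSXMAT00000001996), ITPR3 (ENSXMAT00000013492), PRKCA (ENSXMAT00000006647) and CAMK1G (ENSXMAT00000001424). The other, PRKCE (PRKCE_1of2.CDS), is a coding sequence with its own name, which marks it as 1 of 2 copies. How reads were shared between the copies was not stated, so its counts are uncertain in that respect.

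The skin came from mature male fish of the inbred Jp 163 B line, 10 to 11 months old and from generation 105 of sibling mating, with 2 fish in each exposed group. The exposures were 4100 K "cool white" fluorescent light (FL, 35 kJ/m2), 6 wavebands of 50 nm, and 5 wavebands of 10 nm that divide the 500–550 nm region. The doses of the 50 nm wavebands were 7.3 kJ/m2 (300–350 nm), 18.6 kJ/m2 (350–400 nm), 21.6 kJ/m2 (400–450 nm), 21.2 kJ/m2 (450–500 nm), 17.4 kJ/m2 (500–550 nm) and 13.8 kJ/m2 (550–600 nm), so waveband and dose cannot be told apart. Exposed fish were held in the dark for 14 h beforehand and for 6 h more before skin was taken, and controls were unexposed fish of the same line, 2 for the 50 nm experiment and 2 for the 10 nm experiment. The methods describe the controls both as fish that shared that dark period and as fish taken from the dark cycle with no handling, so a handling difference between exposed and control fish cannot be told apart from light. The study itself also kept sham-treated fish, with the lamp off. It removed genes that differed between sham and unexposed fish before its functional analyses. No column of the counts is labelled as sham. The columns given as FL controls hold the same values as those 2 fish of the 50 nm experiment, so they were not counted again and FL and the 50 nm wavebands were set against the same 2 fish.

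In this route a receptor activates a Gq class G protein, which switches on phospholipase C. The enzyme cleaves a membrane phosphoinositide into diacylglycerol, which activates protein kinase C, and inositol trisphosphate, which opens calcium channels of the endoplasmic reticulum. Calcium bound to calmodulin then activates the CAMK kinases. In vertebrate skin the route is known for its part in keratinocyte differentiation, where extracellular calcium is a main signal, and in pigment cell signalling.

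The 28 distinct libraries held 12835091 to 41221463 counts (median 16067180). Of the 24 exposed libraries, 3 were farthest from their own controls, with 4790 (510–520 nm, fish 1), 3511 (520–530 nm, fish 1) and 3020 (FL, fish 2) of 16872 genes at least 2-fold away. The other 21 had 859 to 2124, the highest of them fish 2 of the 550–600 nm waveband, and the partners of the 3 had 941, 907 and 1008. A named row was present for 3 markers of other cells: MYL2B (striated muscle), LCP2A (leukocytes) and FLT4 (lymphatic endothelium). None was at 0 in any library, and their summed level was 154 to 296 CPM (counts scaled to the size of the library) after FL, 112 to 185 CPM after the 50 nm wavebands and 98.3 to 198 CPM after the 10 nm wavebands, against 158 to 202 CPM in controls of the 50 nm experiment and 146 to 172 CPM in those of the 10 nm experiment. After the 50 nm wavebands LCP2A alone was at 40.7 to 66.6 CPM, against 68.9 and 62.3 CPM in controls. FLT4 was at 17.7 to 31.3 CPM, against 31.7 and 30.6 CPM. For both markers the highest exposed value lay within the controls and all others below both. MYL2B lay on both sides of its controls, at 43.4 to 118 CPM against 101 and 64.9 CPM. The part of these levels in the results was not tested. No keratin row carried a name, so the labelled tissue could not be checked against its own defining genes. In whole skin, fewer cells of a type and less RNA per cell cannot be told apart.

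Of the 36 pairs of member and 50 nm waveband, 4 passed the test, and they lay in 2 genes with opposite signs. GNA15 rose after 350–400 nm and 550–600 nm light, and PRKCE fell after 300–350 nm and 400–450 nm light. A gene was called where edgeR's quasi-likelihood test gave a Benjamini-Hochberg adjusted p under 0.05 over all genes tested together with a change of at least 1, up or down, on the log2 scale. By that rule 0.975% of genes were called for 300–350 nm light, 3.27% for 350–400 nm light, 2.06% for 400–450 nm light, 2.73% for 450–500 nm light, 4.69% for 500–550 nm light and 4.42% for 550–600 nm light, and the median log2 fold change over the 36 pairs was 0.04. No member was called after FL (0 of 6) or any 10 nm waveband (0 of 25 tested pairs). For FL, 3 members had an unadjusted p under 0.05 and DESeq2 and edgeR's exact test each called 1. For the 10 nm wavebands, 4 pairs had an unadjusted p under 0.05, and DESeq2 called 2 and the exact test 3. In the quasi-likelihood test the background was as low. There 0% of genes were called after FL and after 500–510, 510–520, 520–530 and 530–540 nm light, and 0.00611% after 540–550 nm light. Over all genes DESeq2 called 614 values for FL and 2049 for the 10 nm wavebands, and the exact test 762 and 3674. An unadjusted p under 0.05 was found for 2775 of 16513 genes after FL. Single 10 nm wavebands had 2141 to 4705 such genes of 16366. After FL the share of members with such a p (3 of 6) was above that of all genes. With so few genes, nothing is read from the extra member values.

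**Figure D1:**
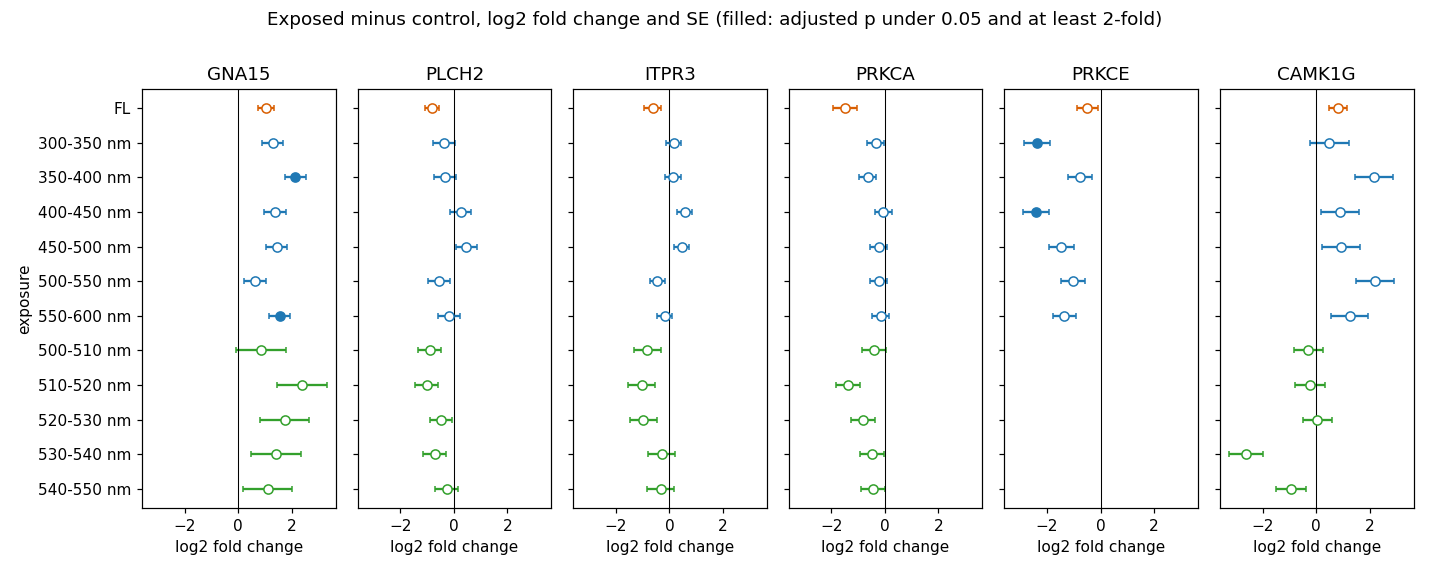
Log2 fold change of each gene (x axis) after each exposure (y axis), exposed minus control, with its standard error from the edgeR fit of each experiment. Filled points passed the test: GNA15 after 350–400 nm (2.13) and 550–600 nm (1.55) light and PRKCE after 300–350 nm (−2.37) and 400–450 nm (−2.41) light; PRKCE has no points for the 10 nm wavebands, where its counts were too low to be tested.

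GNA15, which encodes a Gq class alpha subunit known in mammals from blood and epithelial cells, stood above its controls in nearly every exposure. After 350–400 nm light it stood at 37.0 and 23.3 CPM, against 8.15 and 5.28 CPM in the 2 unexposed fish of the experiment, a log2 fold change of 2.13 (SE 0.40, adjusted p = 0.0144). After 550–600 nm light the fish had 11.6 and 27.6 CPM against the same controls, and the log2 fold change was 1.55 (SE 0.40, adjusted p = 0.0287). Both exposed fish lay above both controls in each case, but the 550–600 nm pair differed from each other more than the controls did. The 350–400 nm call was lost without fish 1 of that waveband (log2 fold change 1.77, adjusted p = 0.0996), without control 2 (1.86, adjusted p = 0.121) and in 1 fit of all distinct libraries. The 550–600 nm call was also lost in the joint fit, and without fish 2 (0.79, adjusted p = 0.249), control 1 (1.89, adjusted p = 0.0657) or control 2 (1.28, adjusted p = 0.202).

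In the 4 other 50 nm wavebands GNA15 was above both controls as well, without passing the test. DESeq2 called 3 of the 4, for 300–350 nm (adjusted p = 0.0257), 400–450 nm (adjusted p = 0.00877) and 450–500 nm light (adjusted p = 0.00552), as did edgeR's exact test. Over all genes these called 4185 and 5862 values for the 50 nm wavebands, against 3036 in the quasi-likelihood test. GNA15 had 18.8 and 14 CPM after 300–350 nm light (log2 fold change 1.28, SE 0.40, adjusted p = 0.104) and 16.6 and 18.8 CPM after 400–450 nm light (1.37, SE 0.40, adjusted p = 0.0660). After 450–500 nm light it had 14.6 and 22.1 CPM (1.43, SE 0.40, adjusted p = 0.0545). The lowest waveband was 500–550 nm, with 10.7 and 10.5 CPM (0.63, SE 0.40, adjusted p = 0.310), and FL gave 15.3 and 12.1 CPM (1.03, SE 0.30, adjusted p = 0.194). The test of any difference among the 6 wavebands did not pass for GNA15 (adjusted p = 0.275), so the order of these levels is not separated from the spread between fish.

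The 10 nm wavebands gave GNA15 log2 fold changes of 0.85 to 2.37 with wide errors, because the fish of a waveband differed. After 510–520 nm light fish 1 had 61.5 CPM, the highest GNA15 level of any library, and fish 2 had 8.71 CPM, against 7.64 and 5.94 CPM in the controls (log2 fold change 2.37, SE 0.94, adjusted p = 0.147). After 520–530 nm light the fish had 38.0 and 7.21 CPM (1.73, SE 0.93, adjusted p = 0.293), and after 530–540 nm light 25.3 and 10.9 CPM (1.40, SE 0.93, adjusted p = 0.449). After 540–550 nm light they had 19.3 and 10.2 CPM (1.10, SE 0.92, adjusted p = 0.595). The exact test of edgeR called GNA15 after 530–540 nm (1.43, adjusted p = 0.00159) and 540–550 nm light (1.13, adjusted p = 0.0134). Over all genes it called 3674 values for the 10 nm wavebands. The 500–510 nm pair was closest together, at 12.6 and 12 CPM (0.85, SE 0.93, adjusted p = 0.672). In all 5 pairs the fish with more GNA15 was also the one with more genes at least 2-fold from the controls, and it was fish 1 each time. Control 1 likewise had more GNA15 than control 2 (7.64 against 5.94 CPM), so fish number and gene number cannot be told apart here. The match of GNA15 with gene number held for 5 of the 6 pairs of the 50 nm experiment, among them 550–600 nm (27.6 CPM with 2124 genes, 11.6 CPM with 1349 genes). It did not hold for 350–400 nm (37 CPM with 1562 genes, 23.3 CPM with 1796 genes) or for FL (15.3 CPM with 1008 genes, 12.1 CPM with 3020 genes). The part of this in the result was not tested. Without fish 2 of the 510–520 nm waveband the GNA15 log2 fold change there was 3.18, which rests on fish 1 alone. With both fish, 1 fit of all distinct libraries called GNA15 there (2.38, adjusted p = 0.0414). That fit called 1756 values over all genes for the 10 nm wavebands, against 1 in the fit of the experiment itself.

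Counted over exposures, both fish lay above both of their own controls for GNA15 in 11 of 12 exposures, and 23 of 24 exposed fish did so. The exception was 1 fish of the 520–530 nm waveband. Of all genes, 2.36% (398 of 16872) had at least 11 such exposures, in which FL and the 50 nm wavebands share 2 control fish and the 10 nm wavebands the other 2. The mean response of GNA15, a contrast chosen after the single wavebands had been seen, was 1.40 (SE 0.33, adjusted p = 0.0177) over the 50 nm wavebands, where 3.79% of genes were called. It was 1.49 (SE 0.79, adjusted p = 0.244) over the 10 nm wavebands, where 0.0244% were called. The first of these was lost without control 1 (1.73, adjusted p = 0.0670) or control 2 (1.12, adjusted p = 0.213). The 2 control groups had nearly the same level, with a log2 difference of 0.01 (SE 0.73).

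**Figure D2:**
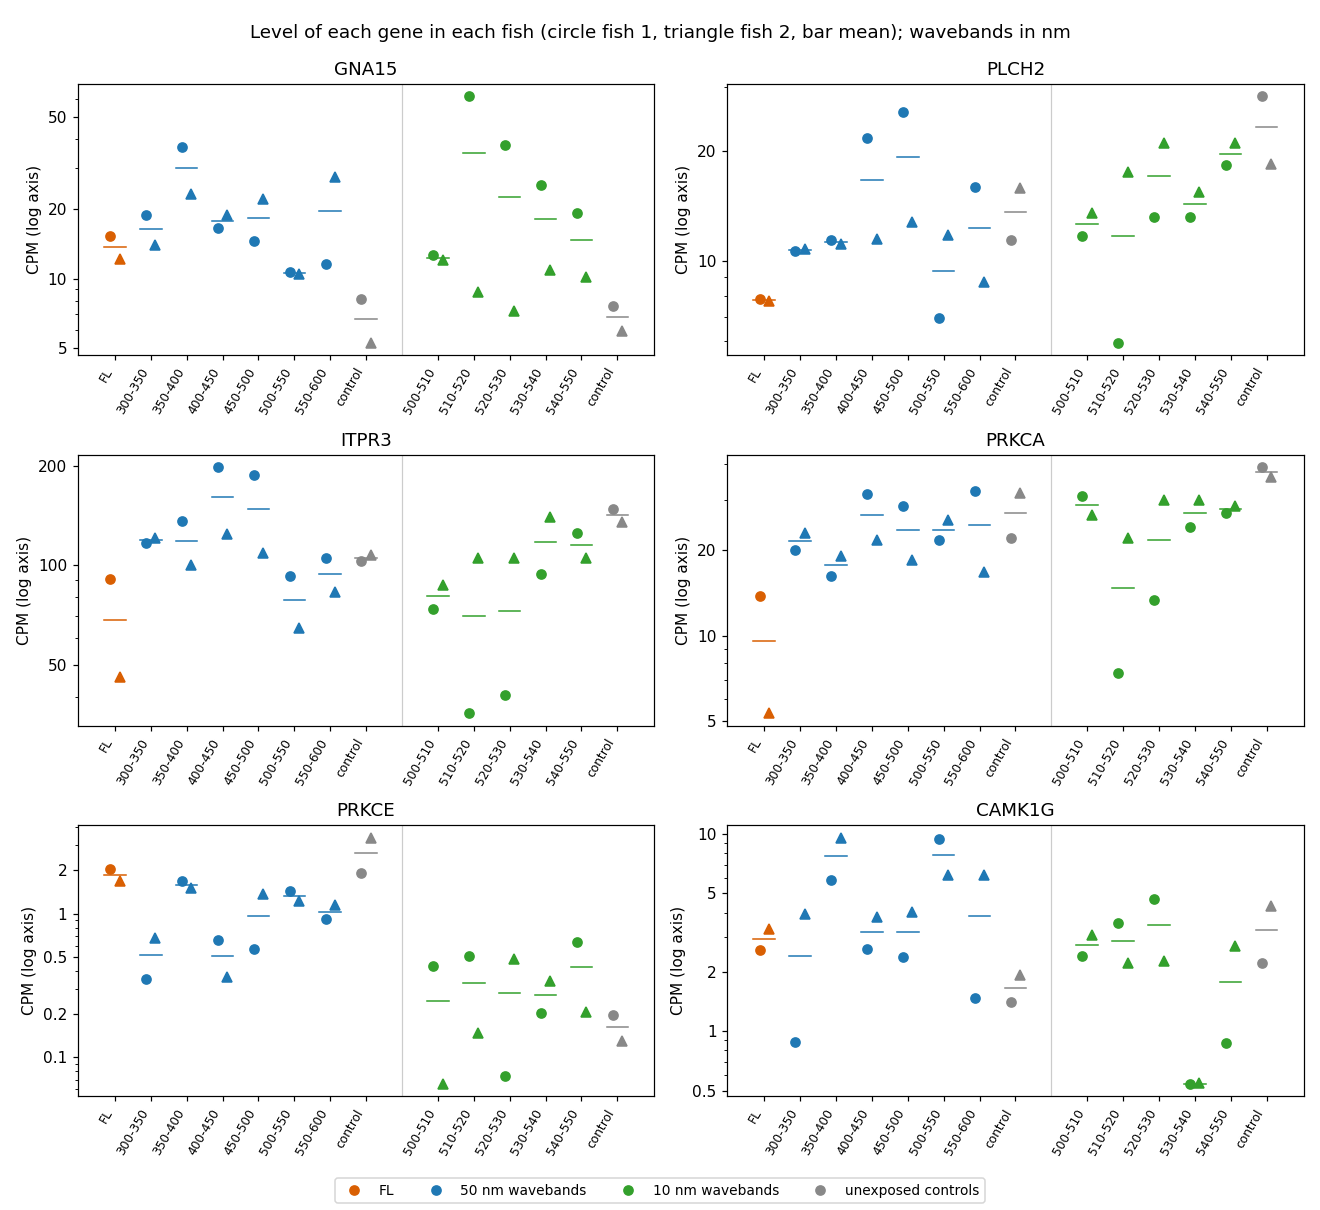
Level of each gene in each fish in CPM (log axis), by exposure; circles are fish 1, triangles fish 2 and bars the mean of 2 fish, with FL and the 50 nm wavebands left of their shared controls and the 10 nm wavebands left of theirs. GNA15 lies above its controls in 23 of 24 exposed fish, and PRKCE is at 0.130 and 0.196 CPM in controls of the 10 nm experiment but at 1.91 and 3.38 CPM in those of the 50 nm experiment.

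PLCH2 encodes phospholipase C eta 2, a calcium-sensitive member of the phospholipase C family described mainly in neurons. It was not called after any exposure, and its log2 fold changes ran between −0.56 and 0.47 after the 50 nm wavebands and between −1.01 and −0.27 after the 10 nm wavebands. FL gave the closest pair, 7.83 and 7.75 CPM against 11.4 and 15.8 CPM in controls (log2 fold change −0.81, SE 0.25, adjusted p = 0.215). The lowest single value was again fish 1 of the 510–520 nm waveband, at 5.95 CPM, with 17.5 CPM in fish 2, against 28.3 and 18.4 CPM in the controls (−1.01, SE 0.43, adjusted p = 0.161). Without fish 2 of that waveband the PLCH2 value was −1.97, which rests on fish 1 alone. The blue wavebands held 1 high fish each, with 21.8 and 11.5 CPM after 400–450 nm light and 25.7 and 12.8 CPM after 450–500 nm light, and both groups overlap the controls.

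PLCB1, the beta-class phospholipase that Gq subunits are best known to activate, was measured beside it as ENSXMAT00000008587 and was not called either. Its nearest approach was after 510–520 nm light, with a log2 fold change of −1.20 (SE 0.36, adjusted p = 0.102).

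ITPR3 encodes an inositol trisphosphate receptor, the calcium channel that opens when phospholipase C is active. It was not called after any exposure. After 400–450 nm light it had 198 and 124 CPM, against 103 and 107 CPM in controls (log2 fold change 0.57, SE 0.29, adjusted p = 0.227), and after 450–500 nm light 187 and 109 CPM (0.46, SE 0.29, adjusted p = 0.315). After 500–550 nm light both fish were below the controls, at 92.7 and 64.6 CPM (−0.45, SE 0.29, adjusted p = 0.307). The test among the 50 nm wavebands gave ITPR3 an unadjusted p of 0.0403 and an adjusted p of 0.235, where 4.35% of genes passed, so the higher values in blue and lower values in green light were not separated from the spread between fish.

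After FL and the 10 nm wavebands all ITPR3 log2 fold changes were below 0. FL fish had 90.5 and 45.8 CPM against 103 and 107 CPM in controls (−0.63, SE 0.32, adjusted p = 0.362). After 510–520 nm light the fish had 35.6 and 105 CPM and after 520–530 nm light 40.6 and 105 CPM, against 148 and 135 CPM in controls (−1.03, SE 0.51, adjusted p = 0.205, and −0.98, SE 0.51, adjusted p = 0.274). In each of the 3 exposures the low fish is a library among the 3 farthest from their controls over all genes. Without the other fish the log2 fold change was −1.20 after FL (without fish 1) and −2.00 after 510–520 nm light (without fish 2). Each of these values rests on the low fish alone. After 500–510 nm light, with no such library, ITPR3 had 73.9 and 87.2 CPM, both below the controls (−0.82, SE 0.50, adjusted p = 0.464).

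PRKCA encodes protein kinase C alpha, a conventional isoform that needs both calcium and diacylglycerol. All of its 12 log2 fold changes were below 0 and none was called, between −0.65 and −0.06 after the 50 nm wavebands and between −1.38 and −0.40 after the 10 nm wavebands, although the sign turned for 4 of the 50 nm wavebands when single fish were left out. The largest was after FL, where fish had 13.8 and 5.33 CPM against 22.1 and 31.7 CPM in controls (−1.49, SE 0.46, adjusted p = 0.215). DESeq2 called it (−1.49, adjusted p = 0.0208), as did edgeR's exact test (adjusted p = 0.0453), where they called 614 and 762 genes for FL. Without FL fish 1 the value was −2.33, which rests on fish 2 alone. After 510–520 nm light it had 7.40 and 22.0 CPM against 39.1 and 36.0 CPM in controls (−1.38, SE 0.46, adjusted p = 0.116), and DESeq2 called that too (−1.35, adjusted p = 0.0403). After 520–530 nm light it had 13.3 and 29.9 CPM (−0.82, SE 0.46, adjusted p = 0.306). For that waveband the study reports lower PKC transcription and names PRKCA in its EGF pathway figure. The quasi-likelihood test used here did not call it. Both fish were below both own controls in 7 of 12 exposures, among them all 5 wavebands of 10 nm, but 16.2% of genes had at least 7 such exposures. Its mean response was −0.28 (SE 0.24, adjusted p = 0.441) over the 50 nm wavebands and −0.71 (SE 0.33, adjusted p = 0.203) over the 10 nm wavebands.

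Beside the low PRKCA and ITPR3 values, some marker levels of the same fish also moved, but not all of them and not in a common direction. In fish 1 of the 510–520 nm waveband LCP2A was at 29.2 CPM and in fish 1 of the 520–530 nm waveband at 33 CPM, against 54.2 and 64.1 CPM in their controls. In the same order MYL2B was at 58.6 and 61.8 CPM, within its controls (94.8 and 56.9 CPM). FLT4 was at 24.1 and 20.5 CPM, against 23.1 and 24.8 CPM. In FL fish 2 the muscle marker MYL2B was at 181 CPM, against 101 and 64.9 CPM in controls, and in FL fish 1 it was at 41.1 CPM. LCP2A in FL fish 2 was above its controls, at 86.8 CPM against 68.9 and 62.3 CPM. FLT4 in that fish was at 28.1 CPM, against 31.7 and 30.6 CPM. The part of these cells in the results was not tested.

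PRKCE encodes protein kinase C epsilon, an isoform that responds to diacylglycerol without calcium. It was the member that fell. After 300–350 nm light it had 0.353 and 0.682 CPM (6 and 11 counts), against 1.91 and 3.38 CPM (45 and 84 counts) in controls, a log2 fold change of −2.37 (SE 0.50, adjusted p = 0.0387). After 400–450 nm light it had 0.651 and 0.360 CPM (11 and 6 counts), and the log2 fold change was −2.41 (SE 0.50, adjusted p = 0.0263). The exposed fish lay below the controls without overlap, but the counts were small and the controls differed from each other by nearly as much as the exposed fish did. Both calls were lost when any 1 of the 4 fish was left out, with log2 fold changes of −2.90 to −1.89 (adjusted p 0.0706 to 0.260) after 300–350 nm and −2.88 to −1.93 (adjusted p 0.0572 to 0.166) after 400–450 nm light. The 300–350 nm call was also lost in 1 fit of all distinct libraries, in which the 400–450 nm call held (−2.37, adjusted p = 0.0418).

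The other 50 nm wavebands gave PRKCE smaller values that did not pass the quasi-likelihood test. The exact test of edgeR called 1 of them, for 550–600 nm light (−1.32, adjusted p = 0.0228), among 5862 values over all genes for the 50 nm wavebands. For 350–400 nm light the log2 fold change was −0.77 (SE 0.44, adjusted p = 0.277), for 450–500 nm light −1.47 (SE 0.46, adjusted p = 0.0725), for 500–550 nm light −1.04 (SE 0.45, adjusted p = 0.144) and for 550–600 nm light −1.35 (SE 0.44, adjusted p = 0.0692). In all 6 wavebands both fish were below both controls, as were 9.74% of genes. The mean over the 6 wavebands, chosen after these values had been seen, was −1.57 (SE 0.31, adjusted p = 0.00835), and without control 2, the higher of the controls, it was −1.09 (adjusted p = 0.210). FL fish had 2.04 and 1.70 CPM and overlapped the same controls (−0.50, SE 0.39, adjusted p = 0.511). The test among the wavebands gave an unadjusted p of 0.0482 and an adjusted p of 0.255, so the 2 called wavebands were not shown to differ from the other 4.

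PRKCE also differed in level between the unexposed fish of the 10 nm and 50 nm experiments. It had 3 and 4 counts in controls of the 10 nm experiment, against 45 and 84 counts in those of the 50 nm experiment. The log2 difference was −4.04, and the ratio of the summed counts per library size was 0.0569. Because PRKCE passed the filter only through the libraries of FL and the 50 nm experiment, where it is higher, this is a description and no test is read from it. The 5 members that passed the filter in every experiment were not called between the control groups, where 9.13% of genes were. GNA15, PLCH2, ITPR3, PRKCA and CAMK1G had adjusted p of 0.995, 0.217, 0.536, 0.485 and 0.298 in the quasi-likelihood test, and none had an unadjusted p under 0.05. All 10 fish exposed to 10 nm wavebands had 1 to 11 PRKCE counts, too few to be tested. The low level is thus shared by all 12 libraries of the 10 nm experiment, and what else differed between the experiments cannot be told apart.

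CAMK1G encodes a calcium/calmodulin-dependent kinase of the CaMKI family, known in mammals mainly from brain. The response of CAMK1G to green light passed a test of difference between the experiments, as did that of 14.4% of all genes. After 500–550 nm light given as 1 waveband it had 9.44 and 6.19 CPM, against 1.40 and 1.93 CPM in controls (log2 fold change 2.19, SE 0.71, adjusted p = 0.0631). After 530–540 nm light both fish had 8 counts, 0.539 and 0.546 CPM, against 2.22 and 4.31 CPM in controls (−2.62, SE 0.65, adjusted p = 0.272). DESeq2 called this fall (−2.60, adjusted p = 0.0191), as did edgeR's exact test (adjusted p = 4.3e-06). Over all genes these called 2049 and 3674 values for the 10 nm wavebands. The remaining 10 nm wavebands overlapped the controls, with log2 fold changes of −0.94 to 0.05.

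Tested in 1 fit of all distinct libraries, the response of CAMK1G to 500–550 nm light minus its mean response to the 5 wavebands of 10 nm was 3.01 on the log2 scale (SE 0.82, adjusted p = 0.0220). The parts were 2.22 (SE 0.66) for the 50 nm waveband and −0.79 (SE 0.49) for the 10 nm wavebands. In that fit the quasi-likelihood test called the first part by itself (adjusted p = 0.0399). The same fit called 2645 values over all genes for the 50 nm wavebands. Of all genes, 14.4% passed this test, so 1 call among the members is near the background. PRKCE had too few counts in the 10 nm experiment to be compared. The remaining members did not pass: GNA15 had −0.85 (SE 0.93, adjusted p = 0.562), and PLCH2, ITPR3 and PRKCA 0.13, 0.25 and 0.50 (SE 0.55, 0.57 and 0.58). The CAMK1G result was lost without fish 1 of the 500–550 nm waveband (2.67, adjusted p = 0.0933), without either control of the 50 nm experiment (2.79, adjusted p = 0.0894, and 3.26, adjusted p = 0.0869) and without control 2 of the 10 nm experiment (2.42, adjusted p = 0.140). The methods give each 10 nm waveband a dose close to that of the 500–550 nm waveband, while waveband width and experiment cannot be told apart.

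**Figure D3:**
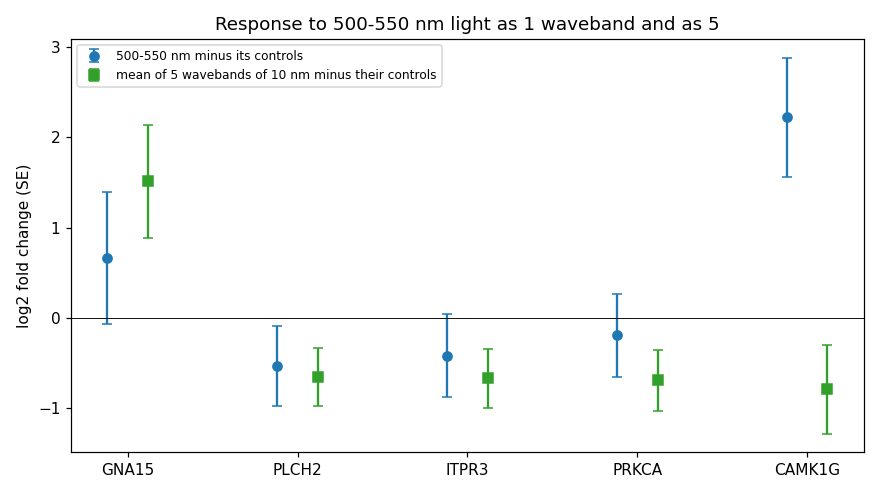
Log2 fold change (y axis, with SE) of each gene after 500–550 nm light as 1 waveband (circles) and as the mean of the 5 wavebands of 10 nm (squares), each against its own controls, from 1 fit of 28 libraries. CAMK1G has 2.22 and −0.79, the only gene of the 5 drawn whose difference passed the test; PRKCE is left out because of its low counts.

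The other 50 nm wavebands gave CAMK1G positive values too. After 350–400 nm light it had 5.86 and 9.59 CPM, above both controls (2.17, SE 0.71, adjusted p = 0.0762). Both this value and the 500–550 nm value passed in DESeq2 (2.20, adjusted p = 0.0140, and 2.21, adjusted p = 0.0111), which called 4185 values over all genes for the 50 nm wavebands. The exact test of edgeR called both too (adjusted p = 8.08e-07 and 7.17e-08), among 5862 values over all genes. After 550–600 nm light the fish had 1.47 and 6.23 CPM (1.25, SE 0.70, adjusted p = 0.257) and after 300–350 nm light 0.883 and 3.91 CPM (0.49, SE 0.73, adjusted p = 0.757), so that 1 fish in each pair was at or below control level. FL gave 2.59 and 3.29 CPM (0.81, SE 0.34, adjusted p = 0.305). The mean over the 50 nm wavebands was 1.32 (SE 0.58, adjusted p = 0.136), and the test among them gave an adjusted p of 0.380. Among the 10 nm wavebands CAMK1G had the lowest p of the members (unadjusted p = 0.0237, adjusted p = 0.561), where 0% of genes passed and 1285 had an unadjusted p under 0.05.

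The levels of the 6 genes did not follow a common pattern across the libraries. Over the 16 libraries of FL and the 50 nm experiment, Pearson's r of GNA15 was −0.116 with PLCH2, 0.222 with ITPR3 and −0.258 with PRKCA. Over the 12 libraries of the 10 nm experiment it was −0.791, −0.831 and −0.880 in the same order, with Spearman's rho of −0.818, −0.685 and −0.727. Of all genes compared, 11.1%, 8.37% and 4.66% had a lower r with GNA15 there, so such values were not rare. Without the 2 libraries whose GNA15 level was farthest from the median, r was −0.553, −0.372 and −0.559. Those 2, fish 1 of the 510–520 and 520–530 nm wavebands, thus add to the size of r. Leaving them out also narrows the range of GNA15, and how much of the relation rests on them was not tested. PLCH2, ITPR3 and PRKCA were positively correlated with each other, with r between 0.810 and 0.897 in the 10 nm experiment and between 0.664 and 0.720 in FL and the 50 nm experiment. Of all genes, 95.3% to 97.6% and 91.7% to 99.8% had a lower r with the gene first named in a pair. Without the 2 libraries farthest from the median of that gene, r was 0.350 (PLCH2 with PRKCA) to 0.575 in the 10 nm experiment. In FL and the 50 nm experiment it was then 0.181 for ITPR3 with PRKCA and 0.452 for PLCH2 with ITPR3. For PLCH2 with PRKCA it hardly moved there (0.664 with all libraries, 0.662 without the 2). The libraries share their scaling, and the fish of 1 exposure share a treatment, so these values are descriptions.

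**Figure D4:**
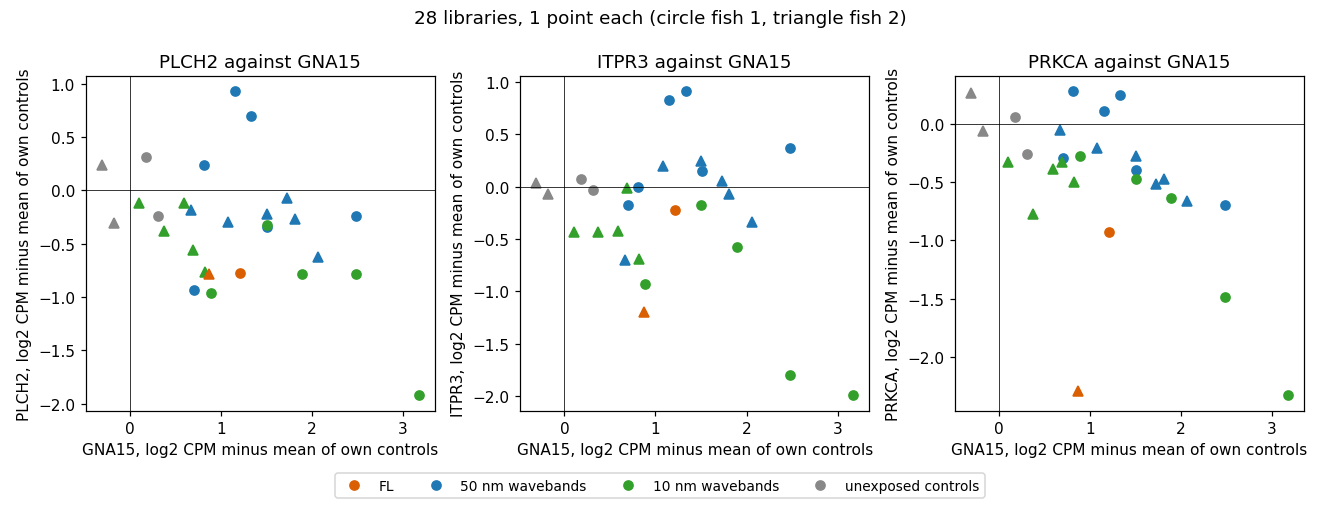
Log2 CPM minus the mean of the own controls, GNA15 (x axis) against PLCH2, ITPR3 and PRKCA (y axes), 1 point for each of 28 libraries. The 2 libraries with the most GNA15 in the 10 nm experiment, at 3.17 and 2.48, are at −1.99 and −1.80 for ITPR3 and −2.33 and −1.49 for PRKCA.

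Among transcripts with a name, the 2 most like each member over the 28 libraries were found by Pearson's r of log2 CPM. Only 73 named rows were compared with each member (74 with PRKCE), so genes without a name could be closer. For GNA15 the closest was TGM8, a transglutaminase (0.858). For PRKCA they were PRKCB, another conventional protein kinase C (0.885), and DSCAML1, a cell adhesion molecule (0.812), and ITPR3 had the same pair in the other order (DSCAML1 0.856, PRKCB 0.773). PLCH2 was most like PRKCA (0.745) and PRKCB (0.724). CAMK1G was most like LPIN1, a phosphatidate phosphatase (0.774), and the row named PKFB1 (0.640). Of 15379 genes, 155 had a higher r with ITPR3 than PRKCB did. For DSCAML1 with PRKCA it was 138, and for PKFB1 with CAMK1G 145. For the other pairs given so far it was 3 (LPIN1) to 47 (PRKCB with PLCH2). In FL and the 50 nm experiment r was 0.556 for ITPR3 with PRKCB, 0.903 for CAMK1G with LPIN1 and 0.911 for PRKCA with PRKCB. In the 10 nm experiment it was 0.969, 0.550 and 0.942. PRKCE had no close match among the named rows, with 0.482 for NR1D4 and 0.362 for ENOX1. Of 15380 genes, 965 had a higher r with PRKCE than NR1D4 did, and 2220 a higher r than ENOX1. Within FL and the 50 nm experiment r was 0.568 for NR1D4 and −0.081 for ENOX1. Within the 10 nm experiment it was −0.027 and −0.028.

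Of the wider route, 9 named rows could be followed: PLCB1, PRKCB as a transcript and as a coding sequence, the kinase MAP2K1, the transcription factor CREB5, the ligand WNT5A, the calmodulin-binding PCP4, the myosin light chain MYL2B and the nitric oxide synthase NOS2. In the 50 nm experiment 1 of 48 tested pairs rose and 1 fell, a share near that of all genes (4.69% for 500–550 nm light and 3.27% for 350–400 nm light), so nothing particular to the route is read from it. CREB5 rose after 500–550 nm light, with 8.83 and 6.95 CPM against 1.82 and 3.18 CPM in controls (1.61, SE 0.47, adjusted p = 0.0437). WNT5A, a ligand that can signal through calcium, fell after 350–400 nm light, with 15.9 and 15.0 CPM against 34.1 and 42.0 CPM in controls (−1.34, SE 0.32, adjusted p = 0.0286). None of the 7 tested pairs after FL and none of the 45 after the 10 nm wavebands passed in edgeR's quasi-likelihood test, where 2 and 11 had an unadjusted p under 0.05. Of all genes, 2775 of 16513 had such a p after FL, and 2141 to 4705 of 16366 after single 10 nm wavebands. Nothing particular to the route is read from these counts either. PRKCB, which has 2 rows between which reads may be split, had 12.2 and 6.88 CPM in its transcript row after FL, against 16.6 and 20.5 CPM in controls (−0.96, SE 0.32, adjusted p = 0.233).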

How the data were processed

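RNA-Seq of skin gave 1 library for each fish. Per the study's methods, low-quality read ends were removed and GSNAP placed the reads on Ensembl transcripts. The authors deposited the raw counts per transcript, which are not normalized. The methods name xEpress for counting. How it was set to treat reads matching several transcripts is not given in the sources used here. The table has 32 columns, 28 of them distinct.

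Groups and replicate numbers came from the labels. FL (2 exposed and 2 control fish, 16513 genes), the 50 nm experiment (16722 genes) and the 10 nm experiment (16366 genes) were each fitted with edgeR 4.0.16 in R 4.3.3 (filterByExpr, TMM scaling, quasi-likelihood test), and p-values were adjusted by Benjamini-Hochberg over all genes tested. Comparisons between experiments used 1 fit of the 28 libraries (16872 genes). The filter kept all 6 genes, except PRKCE in the 10 nm experiment. Standard errors were obtained from each log2 fold change and its F statistic (their quotient, with the square root of F). CPM were computed from TMM library sizes, and log2 values of single fish used a prior count of 2.

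Names came from the 63 identifiers of the study's probe panel and from rows that carry a gene name. The rows named are the 6 members, the 9 rows of the wider route, for each member the 2 named rows most like it (among those averaging 1 CPM or more; 1 of them is not reported here), and 3 markers of other cells. The members and these lists were chosen with earlier results of these data known. Alternatives were RLE size factors, no filter, edgeR's exact test, DESeq2 1.42.0, the joint fit, the replicate number as a block, and leaving out each fish. Each fit was also run on simulated counts with changes of known size. Those counts held no outlying libraries, so nothing about such libraries is read from that run. Figures were drawn with matplotlib. The study's sham-treated fish were not analysed here.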

Additional observations from a re-analysis of the deposited data

Results flagged for a closer look

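CAMK1G drew attention because its response to green light differed between the 2 experiments by a test of the difference itself. The response to 500–550 nm light as 1 waveband minus the mean response to the 5 wavebands of 10 nm was 3.01 on the log2 scale (SE 0.82, adjusted p = 0.0220 by edgeR's quasi-likelihood test). Of all genes 14.4% passed the same test, so 1 call among the members is near the background, and leaving out each of 16 fish in turn gave 2.42 to 3.40, with an adjusted p of 0.0150 to 0.140 and 12 of 16 values past the threshold. All groups held 2 or fewer distinct fish, so no group was large enough to be searched for outlying fish.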

How the results depend on the processing

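RLE size factors and no filter on low counts changed no call of a member. The replicate numbers join different fish, so they were not treated as pairs. The correlations of the deviations of same-numbered fish ran from −0.259 to 0.323 (mean 0.063) in the 50 nm experiment and were −0.236 in FL. In the 10 nm experiment they ran from −0.022 to 0.589 (mean 0.166), and the part of fish number there was not tested. With the replicate number as a block, 6 members' values were called in the 50 nm experiment (4 without it), because CAMK1G passed after 350–400 nm (2.15) and 500–550 nm light (2.32). The block gave 819 called values over all genes in the 10 nm experiment (1 without it). Counted over members, edgeR's exact test called 1 value for FL, 10 for the 50 nm wavebands and 3 for the 10 nm wavebands, DESeq2 called 1, 9 and 2, and 1 fit of all distinct libraries called 0, 2 and 1, against 0, 4 and 0. Over all genes the exact test called 762 for FL, 5862 for the 50 nm and 3674 for the 10 nm wavebands, against 0, 3036 and 1. DESeq2 called 614 for FL, 4185 for the 50 nm and 2049 for the 10 nm wavebands, and the joint fit 446, 2645 and 1756. The cause was not tested.

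Leaving out 1 fish gave 0 to 2 member calls for FL, 0 to 8 for the 50 nm wavebands, 0 to 4 for the 10 nm wavebands and 0 to 1 for the difference of the 500–550 nm response, and over all genes 0 to 2544, 476 to 3489 and 0 to 3618 calls in FL, the 50 nm and the 10 nm experiment. Without any 1 of the 3 libraries farthest from their controls over all genes, the member count stayed at 0 for FL and the 10 nm wavebands, and without fish 2 of the 550–600 nm waveband it was 7 for the 50 nm wavebands. Where a group was left with 1 fish, it was assumed to vary like the others. No member passed the test among wavebands under TMM or RLE scaling, with no filter, with the block or with 1 exposed fish left out. DESeq2, the exact test and the joint fit were not run for it.

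Values that changed sign when 1 fish was left out, none of them called, are given as log2 ranges. PLCH2 ran from −0.26 to 0.63 (400–450 nm), −0.10 to 0.91 (450–500 nm), −0.66 to 0.22 (550–600 nm), −0.54 to 0.06 (540–550 nm), −0.34 to 0.15 (mean of the 50 nm wavebands) and −0.31 to 0.45 (difference of the 500–550 nm response). PRKCA ran from −0.33 to 0.24 (400–450 nm), −0.56 to 0.08 (450–500 nm), −0.47 to 0.07 (500–550 nm), −0.71 to 0.26 (550–600 nm) and −0.52 to 0.02 (mean of the 50 nm wavebands). CAMK1G ran from −0.93 to 1.20 (300–350 nm), −0.19 to 1.88 (550–600 nm), −0.68 to 0.29 (500–510 nm), −0.62 to 0.37 (510–520 nm) and −0.58 to 0.64 (520–530 nm). ITPR3 ran from −0.10 to 0.35 (350–400 nm) and −0.04 to 0.48 (difference of the 500–550 nm response), and GNA15 from −0.27 to 0.35 between control groups. With 8 counts of CAMK1G and 1 to 11 of PRKCE in some fish, depth limits both genes.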
